A study of Mus musculus with 6 samples.

Results

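The genes described here are 40 genes of DNA replication and S phase entry, chosen by gene symbol. They comprise 4 genes of origin licensing, the 6 subunits of the MCM2-7 helicase, 6 genes of helicase activation, 5 of the replicative polymerases and primase, 6 of the sliding clamp and its loader, the 3 subunits of replication protein A (RPA), 2 of Okazaki fragment joining, 3 of nucleotide supply, 2 of chromatin and histone mRNA, and 3 of S phase entry. All 40 symbols were found once in each of the 6 tables, which hold 55076 rows. RNA-seq was performed on the whole anterior prostate (AP), the lobe of the mouse prostate next to the seminal vesicle, of 20-week-old males, with 3 OEx and 3 Ctrl samples. The samples are called mice 1 to 3 of their group here, although the labels do not say that each came from a separate animal. OEx mice were Pbsn-Cre Rosa26 N1ICD/+, so that Cre driven by the probasin promoter of prostatic epithelium switched on the intracellular domain of Notch1 (N1ICD), the active part of the receptor. Ctrl mice are described by the study as Rosa26 N1ICD/+ without Cre, and the sample labels call them wild type, so by the study's account both groups carried the inducible allele. The comparison asked which replication genes had other RNA levels in AP with overactive Notch1.

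Before S phase, the origin recognition complex, CDC6 and CDT1 load the ring of MCM2 to MCM7 onto DNA, a step called licensing. CDC45 and the GINS complex then turn the ring into an active helicase, RPA coats the single strands, and polymerases alpha, delta and epsilon copy them with the help of primase and the PCNA clamp. Many of these genes are transcribed by E2F factors when cells commit to division. Which cells of the gland supplied their mRNA was not measured here.

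Promoter sequence is shown first, because 13 of the 33 genes with a promoter window hold a word of the E2F type that can be read by eye. RefSeq windows from 250 bases before to 50 bases after the start (GRCm38.p6) were found for 33 of the 40 genes, 38 windows in all. Windows were searched on both strands for the E2F words TTTCGCGC, TTTGGCGC, TTTCCCGC and TTTGCCGC, for the CCAAT box, and for GTGGGAA, a word bound by RBPJ, the DNA-binding partner of N1ICD. The following stretches were picked as examples by word and direction, so they do not show how common the pairing is. They show 3 genes with an E2F word (Mcm6, Mcm5 and Pola1, with higher values in every OEx mouse) and 2 without one in the whole window (Rrm2 and Rpa3, both lower on the deposited scale). Capitals mark E2F words and CCAAT boxes on either strand.
Mcm6: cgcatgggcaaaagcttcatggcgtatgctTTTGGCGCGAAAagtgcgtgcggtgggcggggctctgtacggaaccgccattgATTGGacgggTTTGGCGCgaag
Mcm5: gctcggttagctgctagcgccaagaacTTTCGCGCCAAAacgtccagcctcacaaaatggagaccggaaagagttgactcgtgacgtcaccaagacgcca
Pola1: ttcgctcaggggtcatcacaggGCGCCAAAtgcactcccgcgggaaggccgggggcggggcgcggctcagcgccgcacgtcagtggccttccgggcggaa
Rrm2: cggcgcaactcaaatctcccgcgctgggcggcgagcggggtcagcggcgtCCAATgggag
Rpa3: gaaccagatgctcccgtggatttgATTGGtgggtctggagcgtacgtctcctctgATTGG
The Mcm6 stretch runs from base 140 to base 36 before the start, at chr1:128359741-128359845 on the minus strand. Its first capitals are 2 overlapping E2F words on opposite strands at -110 and -106, followed by a CCAAT box at -57 and a further E2F word at -47. The Mcm5 stretch (chr8:75109329-75109428, plus strand) holds the same kind of overlapping pair at -153 and -149. The Pola1 stretch (chrX:93632216-93632315, minus strand) holds a single E2F word at -138. The Rrm2 stretch (chr12:24708154-24708213, plus strand) has its CCAAT box at -50, and the Rpa3 stretch (chr6:8259192-8259251, minus strand) has CCAAT boxes at -86 and -55. None of the 5 stretches overlaps an annotated exon. An E2F word was present for 13 of the 33 genes, in 34.2% of their windows, against 2.26% of all 32851 RefSeq windows. The 13 genes were Cdc6, Cdt1, Gins3, Lig1, Mcm3, Mcm5, Mcm6, Mcm7, Orc1, Pola1, Pold1, Rfc3 and Uhrf1. Other genes did not pair as the examples do. Rfc3 has an E2F word and a log2 fold change of 0.02. Orc6, Prim1, Rfc1, Rrm1 and Slbp were higher in OEx mice and had no E2F word in their windows. CCAAT boxes were present in 63.2% of the windows of these genes and in 37.4% of all windows. The RBPJ word was present in 7.89% and 6.38%, with matches for Fen1, Mcm3 and Rfc3. These matches describe letters in a window, and binding was not measured.

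The libraries held 14762182 to 18650962 reads on annotated genes, as recovered from the FPKM values (fragments per kilobase of exon, scaled by library size), and 3 reads corresponded to a CPM of 0.161 to 0.203, the limit that a count of 0 allows for counting error alone. The most abundant gene accounted for 14.3% to 22.0% of reads in Ctrl mice and for at most 1.12% in OEx mice, and the deposited values already carried a scaling between mice, with an implied library size that was 1.22 to 1.35 times the read total for OEx and 0.726 to 0.815 times for Ctrl. Notch1 was at 41.9, 47.6 and 78.9 FPKM in OEx mice and at 5.18, 5.55 and 3.34 FPKM in Ctrl mice. The third mouse of each group stood apart. The summed FPKM of 18 immune markers was 136, 138 and 31.4 in OEx mice 1 to 3 and 32.0, 33.3 and 72.7 in Ctrl mice 1 to 3. That of 6 fibroblast markers was 250, 252 and 25.1 in OEx mice and 54.4, 53.1 and 94.7 in Ctrl mice. The neutrophil genes Ly6g and S100a8 were listed at 0 in 5 and 4 of the mice. Seminal vesicle genes summed to 16128 FPKM in Ctrl mouse 3 and to at most 4.36 FPKM elsewhere. By limma, all 6 smooth muscle markers were called lower in OEx mice. So were the basal epithelial genes Krt5, Krt14 and Trp63 and the luminal keratin Krt18 (log2 fold change -1.49). The luminal keratin Krt8 and the epithelial marker Cldn4 were lower by FDR (-0.43 and -0.44, limma FDR 0.00628 and 0.00307). With the trend of exon length removed, described further on, they were at 0.02 and 0.03. The epithelial markers Cdh1 and Epcam went the other way. Cdh1 was higher by FDR (0.63, limma FDR 0.0101). Epcam had higher values in every OEx mouse but did not pass (0.45, limma FDR 0.117). In whole tissue, a change in the number of dividing cells and a change of RNA per cell cannot be told apart.

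The groups were compared by limma on log2(FPKM + 1), a scale that understates changes of genes near or under 1 FPKM. Of the 40 genes, 29 had a mean of at least 1 FPKM and were tested, and 11 were under that filter. A gene is called here with a Benjamini-Hochberg FDR under 0.05 and a fold change over 2, the thresholds of the study. By that rule 1 of the 29 genes, Mcm6, was called higher in OEx mice, where 12.9% of all 12833 tested genes were, and 0 were called lower, where 15.7% of all were. Higher and lower are used below for an FDR under 0.05 alone. By this rule 14 of the 29 were higher in OEx mice (30.7% of all tested genes) and 5 were lower (36.5% of all), and 10 did not pass. The share of higher genes among the 29 was thus above that of all genes and the share of lower ones below it, while the shares of genes changed by more than 2-fold were below those of all genes. The 29 log2 fold changes had a median of 0.30 and a range of -0.57 to 1.26, and the median over all tested genes was -0.078. Groups did not overlap for 15 of the 29 in the higher direction (33.4% of all) and for 6 in the lower one (38.9% of all). With 3 against 3 mice, the exact two-sided permutation test of a single gene cannot give a p under 0.1.

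**Figure D1:**
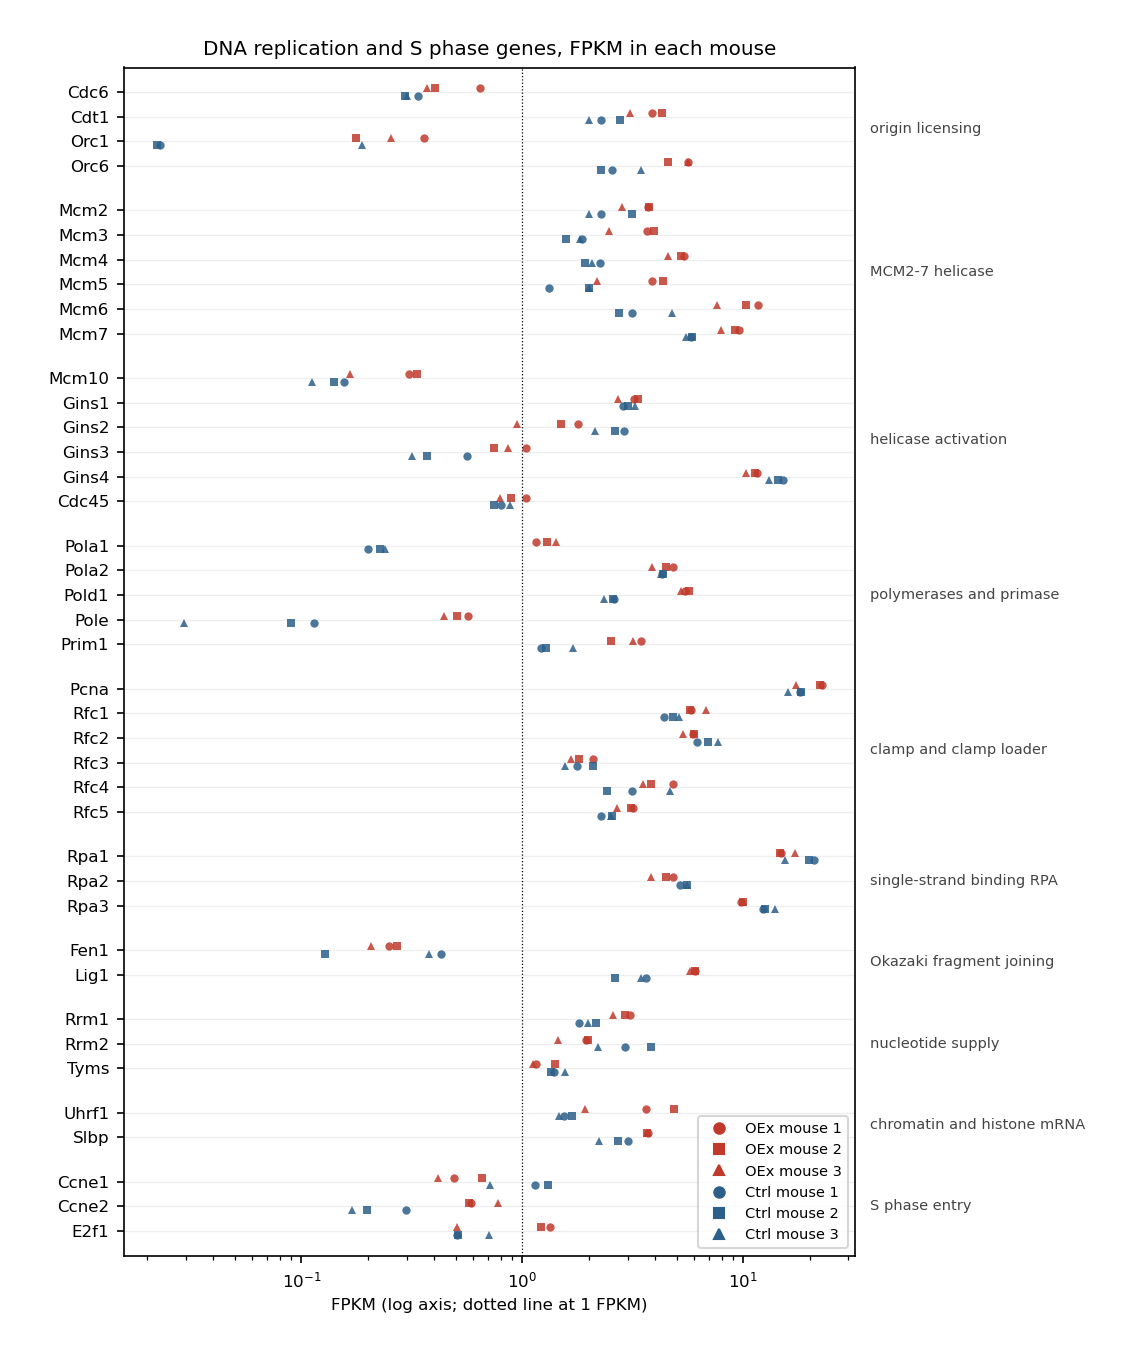
FPKM of each of the 40 genes in each mouse on a log axis, by role, with OEx mice in red and Ctrl mice in blue and a marker shape for each mouse. The licensing, MCM and polymerase genes lie mostly to the right in OEx mice and the RPA genes mostly to the left, and OEx mouse 3 (triangle) is the lowest OEx mouse for 30 of the 40 genes.

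Among the licensing genes, both that passed the filter were higher in OEx mice. Orc6, the smallest subunit of the origin recognition complex, was at 5.62, 4.57 and 5.65 FPKM in OEx mice and at 2.56, 2.28 and 3.47 FPKM in Ctrl mice, with a log2 fold change of 0.74 ± 0.147 (SE, limma FDR 0.00395). Cdt1, which brings the MCM ring to origins, was at 3.86, 4.29 and 3.09 FPKM in OEx and 2.27, 2.78 and 2.01 FPKM in Ctrl mice (log2 fold change 0.50 ± 0.141 SE, FDR 0.0183 by limma). Groups did not overlap for either gene. Cdc6, the other loader, and Orc1, the ATPase of the origin complex, were under the filter. Cdc6 was at 0.642, 0.401 and 0.371 FPKM in OEx and 0.336, 0.295 and 0.302 FPKM in Ctrl mice. Orc1 rested on 25, 14 and 16 reads in OEx mice and on 1, 1 and 10 reads in Ctrl mice, so that Ctrl mouse 3 reached into the OEx range.

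In all 6 helicase subunits the log2 fold change was above 0, and 5 of the 6 were higher in OEx mice. Mcm6 was at 11.7, 10.3 and 7.63 FPKM in OEx mice and at 3.15, 2.75 and 4.77 FPKM in Ctrl mice. It was 2.78 times higher on average, with a log2 fold change of 1.26 ± 0.209 (SE, limma FDR 0.00182), and was called higher under each of the 22 alternative settings run. Its gene lies at chr1:128331590-128359664 on the minus strand of GRCm38. Mcm4 was at 5.41, 5.25 and 4.58 FPKM in OEx and 2.25, 1.92 and 2.07 FPKM in Ctrl mice, with a log2 fold change of 0.98 ± 0.101 (SE, limma FDR 2.4e-04), just under the 2-fold threshold. Mcm7 was at 9.57, 9.22 and 7.95 FPKM in OEx and 5.83, 5.88 and 5.50 FPKM in Ctrl mice (log2 fold change 0.55 ± 0.095 SE, FDR 0.00216 by limma). These 3 genes left a clear gap between the groups. Mcm3 was at 3.69, 3.96 and 2.48 FPKM in OEx and 1.87, 1.59 and 1.82 FPKM in Ctrl mice (log2 fold change 0.65 ± 0.157 SE, FDR 0.00955 by limma). Mcm5 was at 3.88, 4.35 and 2.19 FPKM in OEx and 1.32, 2.01 and 2.01 FPKM in Ctrl mice (log2 fold change 0.66 ± 0.222 SE, FDR 0.0349 by limma). OEx mouse 3 was close to the Ctrl mice for both, above all for Mcm5. Mcm2 was at 3.72, 3.74 and 2.84 FPKM in OEx and 2.28, 3.14 and 2.01 FPKM in Ctrl mice, its groups overlapped, and its FDR was 0.0847 with limma.

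The 6 subunits form a ring with equal numbers of each protein, yet their RNA levels per length differed within each mouse. The highest subunit was 2.77 to 4.42 times the lowest. Mcm6 was the highest in OEx mice 1 and 2, and Mcm7 was the highest in OEx mouse 3 and in all Ctrl mice. The share of Mcm6 in the summed FPKM of the 6 genes was 30.8%, 28.1% and 27.6% in OEx mice and 18.9%, 15.9% and 26.2% in Ctrl mice. Ctrl mouse 3 was thus near the OEx mice. The sum itself was 37.9, 36.9 and 27.7 FPKM in OEx mice and 16.7, 17.3 and 18.2 FPKM in Ctrl mice, with no overlap.

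Helicase activation did not move as a block. Gins2 was at 1.79, 1.51 and 0.947 FPKM in OEx mice and at 2.89, 2.64 and 2.14 FPKM in Ctrl mice, with a log2 fold change of -0.57 ± 0.168 (SE, limma FDR 0.0217) that was at 0.02 under scaling to equal FPKM sums. Of its 4097 exon bases, 2758 are shared with Gse1 on the other strand, and the sources used here do not say that counting used strand, so reads of the pair cannot be told apart. Gins4, the most abundant gene of the group, was at 11.6, 11.3 and 10.3 FPKM in OEx and 15.1, 14.4 and 13.1 FPKM in Ctrl mice (log2 fold change -0.34 ± 0.0908 SE, FDR 0.0153 by limma), a direction that turned to 0.39 when mice were scaled to equal read totals. Gins1 was at 3.21, 3.35 and 2.70 FPKM in OEx and 2.85, 3.01 and 3.26 FPKM in Ctrl mice, with groups that overlapped. The fourth subunit, Gins3, was under the filter and went the other way, at 1.04, 0.743 and 0.859 FPKM in OEx and 0.561, 0.371 and 0.316 FPKM in Ctrl mice. The 4 subunits of 1 complex therefore had values in both directions. Mcm10, which helps to open the double helix, was at 0.166 to 0.335 FPKM in OEx and 0.111 to 0.156 FPKM in Ctrl mice. Cdc45, the partner of GINS, was at 0.790 to 1.04 FPKM in OEx and 0.749 to 0.882 FPKM in Ctrl mice, with overlap.

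Among the polymerases, the catalytic subunits were higher in OEx mice on the tested scale or, under the filter, in every mouse. Pold1, the catalytic subunit of polymerase delta, was at 5.44, 5.71 and 5.22 FPKM in OEx and 2.60, 2.58 and 2.36 FPKM in Ctrl mice, with a log2 fold change of 0.88 ± 0.0875 (SE, limma FDR 2.1e-04). Prim1, the catalytic subunit of primase, was at 3.45, 2.53 and 3.17 FPKM in OEx and 1.22, 1.28 and 1.70 FPKM in Ctrl mice (log2 fold change 0.75 ± 0.138 SE, FDR 0.00292 by limma). Neither had a mouse in the range of the other group. Pola1, the catalytic subunit of polymerase alpha (chrX:93304767-93632155, minus strand), was at 1.16, 1.3 and 1.42 FPKM in OEx mice and at 0.200, 0.228 and 0.239 FPKM in Ctrl mice. These values stood for 204, 262 and 226 reads in OEx and 22, 26 and 32 reads in Ctrl mice, and the ratio of the means was 5.82. Pole, the catalytic subunit of polymerase epsilon, was at 0.570, 0.509 and 0.442 FPKM in OEx mice and at 0.115, 0.0900 and 0.0295 FPKM in Ctrl mice. It rested on 127, 130 and 89 reads in OEx and 16, 13 and 5 reads in Ctrl mice, a ratio of 6.50. These were the largest ratios among the 40 genes. The mean of Pola1 over the 6 mice was 0.758 FPKM and that of Pole 0.292 FPKM, so both were under the filter, and only Pola1 had an OEx mean above it.

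The accessory subunits had values in both directions. Pola2, the regulatory subunit of polymerase alpha, was at 4.84, 4.46 and 3.86 FPKM in OEx and 4.31, 4.33 and 4.24 FPKM in Ctrl mice. Its log2 fold change was 0.02 with a 95% interval from -0.22 to 0.26. The ratio of Pola1 to Pola2 was 0.240, 0.291 and 0.368 in OEx mice and 0.0463, 0.0526 and 0.0564 in Ctrl mice. Outside the 40 genes, Pold2 and Pold4 of polymerase delta were called lower (log2 fold changes of -1.20 and -1.26). Pole3 of polymerase epsilon had a log2 fold change of -0.61 (limma FDR 5.9e-04), which turned to 0.13 under equal read totals. Pold2 and Pold4 were then at -0.46 and -0.50, and with the trend of exon length removed, described further on, Pold2, Pold4 and Pole3 were at -0.73, -0.80 and -0.17. Pold3 and Pole4 did not pass (limma FDR 0.0692 and 0.252). Pole2 (0.713 to 0.800 FPKM in OEx and 0.228 to 0.429 FPKM in Ctrl mice) and the primase subunit Prim2 (1.05 to 1.12 and 0.546 to 0.633 FPKM) were under the filter, each with higher values in every OEx mouse. In the fit to recovered reads described further on, Pole2, Prim2 and Pold3 had log2 fold changes of 1.25, 0.94 and 0.45 (limma-voom FDR 0.0144, 0.00367 and 0.046). The ratio of Pold1 to Pold2 was 0.372 to 0.538 in OEx mice and 0.0834 to 0.0947 in Ctrl mice, and that of Pole to Pole3 was 0.0333 to 0.0460 and 0.00142 to 0.00549. Ratios within a mouse do not depend on the scaling between mice, but they can carry the trend of exon length. Pold1 and Pold2 have 4859 and 1896 exon bases, and Pole and Pole3 have 11160 and 2040. Pola1 and Pola2 are of like length (8813 and 8294 exon bases). Pole and Pola1, under the filter, had no value with that trend removed.

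**Figure D2:**
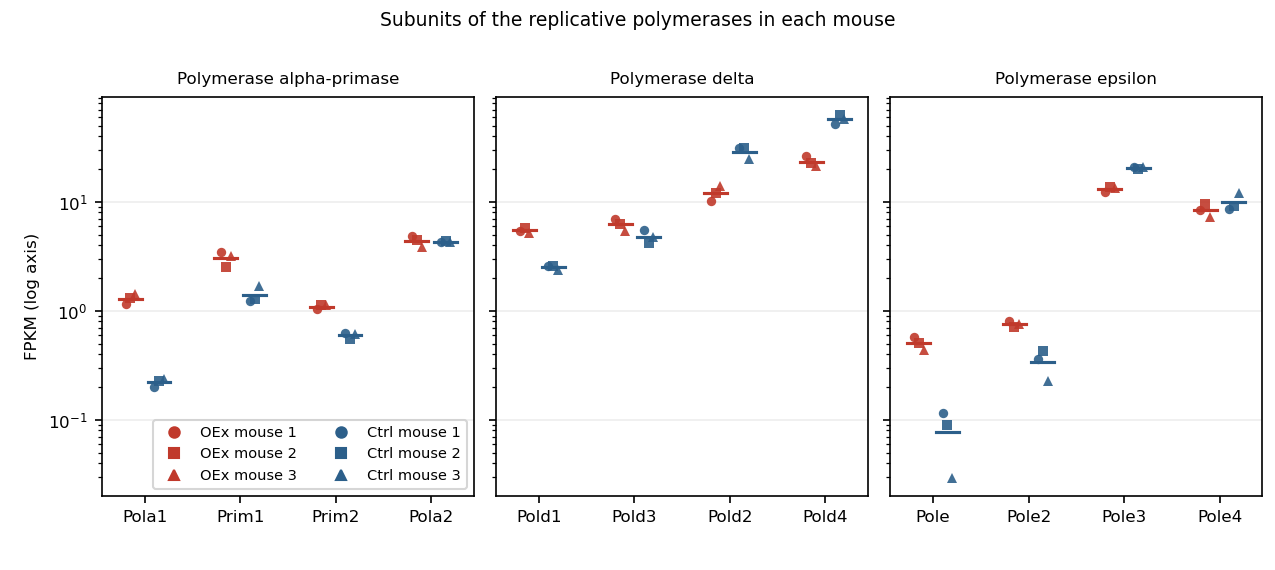
FPKM of the subunits of polymerase alpha-primase, delta and epsilon in each mouse on a log axis, with OEx in red, Ctrl in blue and a bar at the mean of 3 mice. Pola1, Pold1 and Pole lie higher in every OEx mouse, Pola2 and Pole4 overlap, and Pold2, Pold4 and Pole3 lie lower in every OEx mouse on the deposited scale, with the direction of Pole3 turning under equal read totals.

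Of the sliding clamp and its loader, 1 of the 6 genes passed an FDR of 0.05 on the deposited scale. Pcna, the clamp that tethers polymerases to DNA, had the highest mean FPKM of the 40 genes. It was at 22.7, 22.4 and 17.4 FPKM in OEx mice and at 18.2, 18.3 and 15.9 FPKM in Ctrl mice, with a log2 fold change of 0.23 ± 0.126 (SE, limma FDR 0.141), and OEx mouse 3 lay within the Ctrl range. Rfc1, the large subunit of the clamp loader, was higher, at 5.79, 5.74 and 6.79 FPKM in OEx and 4.41, 4.80 and 5.10 FPKM in Ctrl mice (log2 fold change 0.30 ± 0.101 SE, FDR 0.035 by limma). Rfc2 had values in the other direction, at 5.94, 5.99 and 5.37 FPKM in OEx and 6.20, 6.97 and 7.69 FPKM in Ctrl mice, with a limma FDR of 0.084 and 952 of its exon bases shared with Lat2. Rfc3, Rfc4 and Rfc5, the other small subunits, had log2 fold changes of 0.02, 0.22 and 0.21 and did not pass. For Rfc5 all OEx mice were above all Ctrl mice (2.69 to 3.18 against 2.28 to 2.56 FPKM).

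RPA went the other way on the deposited scale. All 3 subunits had log2 fold changes below 0, and their summed FPKM was 29.5, 29.1 and 30.9 in OEx mice and 38.5, 38.1 and 35.0 in Ctrl mice. Rpa3, the smallest subunit, was at 9.75, 10.01 and 9.95 FPKM in OEx and 12.3, 12.5 and 14.0 FPKM in Ctrl mice (log2 fold change -0.35 ± 0.0821 SE, FDR 0.00834 by limma). Rpa2, the subunit phosphorylated under replication stress, was at 4.81, 4.47 and 3.81 FPKM in OEx and 5.21, 5.60 and 5.58 FPKM in Ctrl mice (log2 fold change -0.27 ± 0.101 SE, FDR 0.0492 by limma). Rpa1, the large DNA-binding subunit, was at 14.9, 14.7 and 17.1 FPKM in OEx and 20.99, 19.99 and 15.5 FPKM in Ctrl mice, with overlap and a limma FDR of 0.137. Scaled to equal read totals, the values of Rpa1, Rpa2 and Rpa3 turned to 0.49, 0.38 and 0.37, and the median of all tested genes moved to 0.56. With the trend of exon length removed, described further on, they were at -0.34, -0.01 and 0.10, and the median of all genes was -0.05. Rpa2 kept its direction at an FDR under 0.05 in 1 of 21 alternative settings, and Rpa3 in 14 of 22. The lower direction of Rpa2 and Rpa3 thus depended on the deposited scale.

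The remaining groups were small and mostly split. Lig1, which seals Okazaki fragments, was at 6.06, 6.09 and 5.76 FPKM in OEx and 3.63, 2.64 and 3.44 FPKM in Ctrl mice (log2 fold change 0.73 ± 0.115 SE, FDR 0.00154 by limma). Fen1, the flap nuclease that trims the fragments, had only 9 to 15 reads per OEx mouse and 4 to 14 per Ctrl mouse, and 1909 of its 2422 exon bases are shared with the antisense gene Gm10143. Its level was not resolved at this depth. Rrm1, the large subunit of ribonucleotide reductase, was at 3.09, 2.93 and 2.59 FPKM in OEx and 1.81, 2.17 and 1.99 FPKM in Ctrl mice (log2 fold change 0.37 ± 0.106 SE, FDR 0.019 by limma). Rrm2, its small subunit made in S phase, was at 1.94, 1.99 and 1.46 FPKM in OEx and 2.91, 3.85 and 2.21 FPKM in Ctrl mice (log2 fold change -0.50 ± 0.176 SE, FDR 0.0413 by limma), a direction that turned to 0.05 under equal read totals. The 2 subunits of the reductase thus had opposite signs on the deposited scale, and groups did not overlap for either. Tyms, thymidylate synthase, was at 1.16, 1.42 and 1.12 FPKM in OEx and 1.39, 1.35 and 1.56 FPKM in Ctrl mice, with overlap.

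Uhrf1, which reads hemimethylated DNA behind the fork, was at 3.63, 4.86 and 1.93 FPKM in OEx and 1.54, 1.69 and 1.47 FPKM in Ctrl mice (log2 fold change 0.74 ± 0.248 SE, FDR 0.0339 by limma), with OEx mouse 3 again next to the Ctrl mice. Slbp, which binds the stem-loop of histone mRNA, was at 3.71, 3.66 and 3.66 FPKM in OEx and 3.03, 2.72 and 2.23 FPKM in Ctrl mice (log2 fold change 0.36 ± 0.11 SE, FDR 0.0251 by limma). The 3 genes of S phase entry were all under the filter. Ccne2, cyclin E2, was at 0.588, 0.576 and 0.777 FPKM in OEx and 0.297, 0.199 and 0.169 FPKM in Ctrl mice. Ccne1, cyclin E1, was at 0.490, 0.657 and 0.416 FPKM in OEx and 1.14, 1.31 and 0.717 FPKM in Ctrl mice. The cyclins E thus lay apart between groups in opposite directions. Exons of Ccne2 share 609 bases with Ints8, and those of Mcm7, Cdc45, Orc1, Orc6, Pole, Rfc4, Rfc5, Rpa1, Lig1 and Slbp share fewer with other genes. E2f1, an activator of this gene program, was at 1.34, 1.22 and 0.509 FPKM in OEx and 0.507, 0.514 and 0.709 FPKM in Ctrl mice, and OEx mouse 3 was as low as the Ctrl mice.

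The 11 genes under the filter were also compared with limma-voom on the recovered reads over 15596 rows that averaged 10 reads or more, a fit added after the values were seen, in which all 40 genes were kept. Pola1 (log2 fold change 2.58, standard error 0.228, limma-voom FDR 9.1e-05), Pole (2.96, 0.475, FDR 0.00133), Ccne2 (1.60, 0.359, FDR 0.00627) and Gins3 (1.16, 0.345, FDR 0.0207) were higher in OEx mice. Orc1 also passed (2.09, 0.77, limma-voom FDR 0.0466), but its groups overlapped. Its Ctrl reads were 1, 1 and 10, so it entered this fit only through its OEx reads. With a pseudocount and filter of 0.1 FPKM its limma FDR was 0.0835. Mcm10, Cdc6, Cdc45, E2f1, Ccne1 and Fen1 did not pass an FDR of 0.05 in the limma-voom fit. With the pseudocount and filter of 0.1 FPKM, Ccne1 was lower (log2 fold change -0.88, limma FDR 0.0435), and the others again did not pass. Over all 40 genes, with Orc1 counted, the limma-voom fit called 10 higher (22.9% of all rows in it) and 0 lower (15.8% of all). By FDR alone 19 were higher (34%) and 1, Gins2, was lower (29.7%). The median log2 fold change of the 40 genes was 0.59, and that of all rows in this fit was 0.12. This fit has no pseudocount of 1 FPKM and uses its own scaling between mice. Its fold changes for low genes are larger, as seen for Mcm4 at 1.36 and Pold1 at 1.20. On the deposited scale with a pseudocount and filter of 0.1 FPKM, Mcm4 and Pold1 were at 1.25 and 1.09. Without limma, 21 of the 40 genes lay higher in every OEx than in every Ctrl mouse, 7 lay lower, and 12 overlapped, against 14.2% higher and 10.9% lower of all 55076 rows, which include rows with few or no reads.

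**Figure D3:**
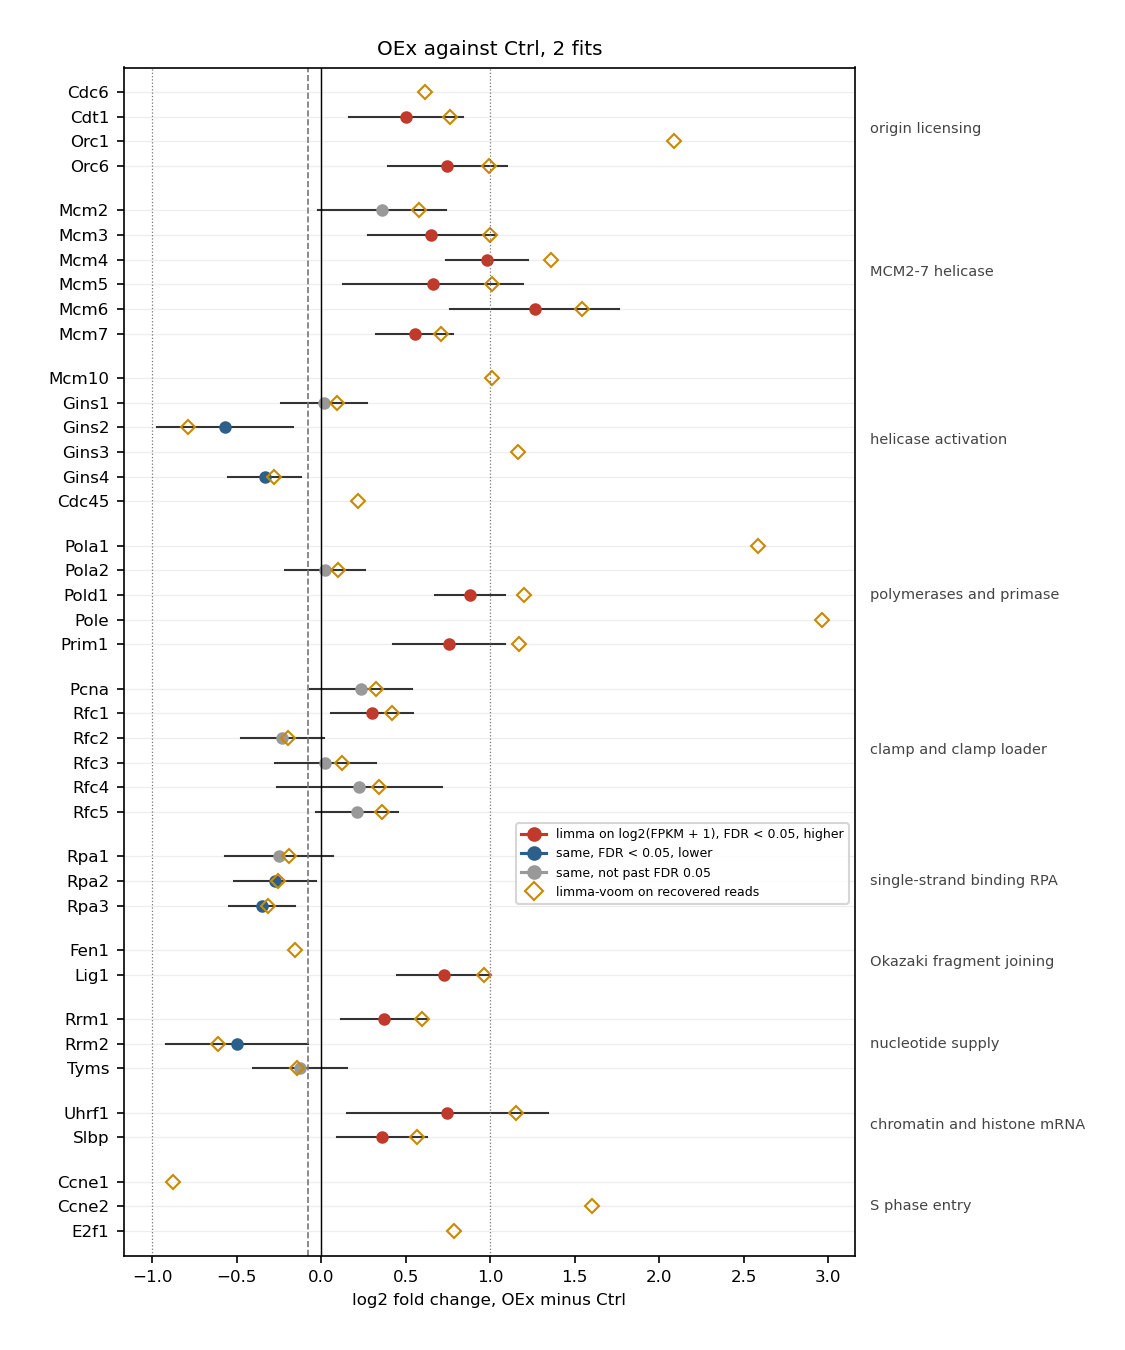
Log2 fold change of OEx against Ctrl mice for each of the 40 genes, by role. Filled circles with 95% intervals are the 29 genes tested with limma on log2(FPKM + 1), open diamonds are limma-voom estimates on recovered reads, dotted lines mark 2-fold and the dashed line the median of all tested genes. Mcm6 alone lies past 2-fold among the circles, at 1.26, and the diamonds of Pola1 and Pole lie at 2.58 and 2.96.

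Of the 19 genes that passed an FDR of 0.05, 7 (Orc6, Mcm4, Mcm6, Mcm7, Pold1, Prim1 and Lig1) were also past it, in the same direction, under every one of the other settings that kept them. Replicates 1 and 2 lay close together in both groups, and with their mean taken as 1 mouse, a setting added after the values were seen, 7 genes were higher and 0 lower by FDR. The share of all genes by FDR in that smaller fit was not taken, so the drop is not read as particular to these genes. The mean chi-square per gene between replicates 1 and 2 was 2.14 in OEx and 2.30 in Ctrl mice. Pairs with mouse 3 had 12.3 to 18.9, where counting noise alone gives about 1. These values do not show whether replicates 1 and 2 came from separate animals. Without OEx mouse 3, whose immune and fibroblast sums were the lowest of the OEx mice, 3 genes were called higher. Of all 12833 tested genes, 1726 were called higher in that fit. The levels of Mcm2, Mcm3, Mcm5, Mcm6, Mcm10, Uhrf1 and E2f1 were lowest of the OEx mice in OEx mouse 3, and the part of cell composition in these levels was not tested.

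Gene length moved with the result. Over 12463 tested rows with an exon length, the log2 fold change rose with length (Spearman 0.28 across genes, which are not independent replicates), and the median was -0.61 in the bin of genes around 1332 bases and 0.51 in the bin around 11507 bases. The higher genes of replication had a median exon length of 4264 bases and the lower ones of 2771 bases. Rpa3 and Gins4 are among the shortest, with 1136 and 1349 bases. Against genes of like length, Mcm6, Mcm4, Pold1 and Orc6 lay above the upper quartile, whereas Rpa3 and Gins4 lay above the median. With the trend removed from each mouse, the log2 fold change was 1.26 for Mcm6, 1.11 for Mcm4, 1.11 for Orc6 and 0.86 for Pold1. Those of Gins4 and Rpa3 turned to 0.15 and 0.10, and that of Rrm1, which has 11012 exon bases, to -0.04. Pcna, Rfc4 and Gins1, which had not passed, were then at 0.61, 0.72 and 0.51 (limma FDR 0.00492, 0.0091 and 0.00257), and Rfc2 and Rpa1 at -0.38 and -0.34 (limma FDR 0.027 and 0.037). RNA quality per mouse was not analysed here, and its part in the length trend was not tested.

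**Figure D4:**
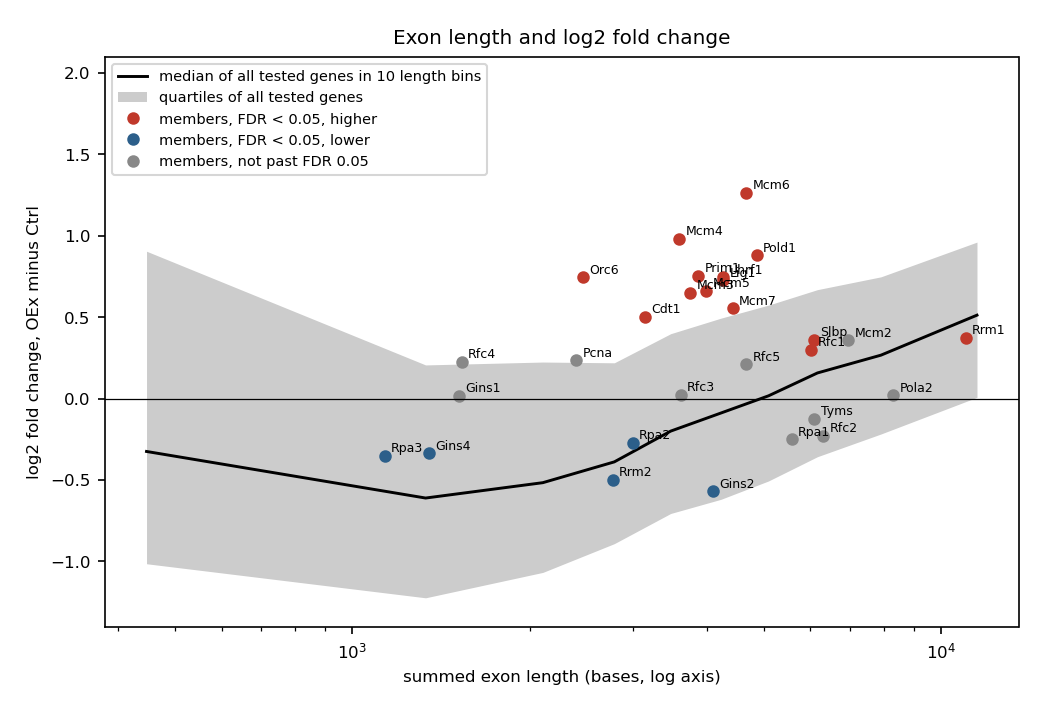
Log2 fold change of OEx against Ctrl mice plotted against summed exon length on a log axis for the 29 tested genes of replication (points), with the median (line) and quartiles (grey) of all tested genes in 10 bins of length. Most red points (higher, FDR under 0.05) lie above the grey band, and the blue points (lower on the deposited scale) lie within it.

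Neighbouring gene groups were counted in the same fit, in which 12.9% of all tested genes were called higher and 15.7% lower. By FDR alone these shares were 30.7% and 36.5%. Of 44 other replication genes, 28 were tested, 5 were called higher and 4 lower, and 12 and 9 passed by FDR alone, with a median log2 fold change of 0.28. The called genes with the largest changes were Gmnn, the inhibitor of CDT1 (log2 fold change 2.09), Dctpp1, which removes aberrant dCTP (-1.81), Pold4, Rnaseh2c of ribonuclease H2 (-1.24) and Top1, topoisomerase I (1.24). Under the 4 other scalings Rnaseh2c was at -0.97 to -0.37, under the 2-fold threshold in each, and Dctpp1 at -1.55 to -0.96. Top1 was at 1.47 to 1.96 and Gmnn at 2.33 to 2.87. With the trend of exon length removed, Rnaseh2c was at -0.75 and Top1 at 0.86, both under that threshold. Gmnn was at 16.2, 14.6 and 28.8 FPKM in OEx mice and at 3.11, 2.95 and 5.35 FPKM in Ctrl mice, above Cdt1 in every mouse. Of 22 genes of the E2F and RB network, 17 were tested, 0 were called higher and 3 lower, and 8 and 3 passed by FDR, with a median of 0.30. The called genes were Cks1b, a cofactor of the SCF ligase (-1.99), the transcription factor E2f2 (-1.08) and the phosphatase Cdc25a (-1.08). Under the 4 other scalings Cks1b was at -1.72 to -1.12 and stayed called, whereas E2f2 was at -0.90 to -0.51 and Cdc25a at -0.86 to -0.36, under the 2-fold threshold in each. Of 24 genes of G2 and mitosis, 11 were tested, 1 was called higher and 0 lower, and 5 and 0 passed by FDR, with a median of 0.50. The other 13 were under the filter, and 12 of them lay higher in every OEx mouse. The share was 14.2% of all rows, which include tested rows and rows with few or no reads. Limma-voom over rows with a mean of 10 reads called 17 of the 24 higher and 0 lower (22.9% and 15.8% of all). It called 20 and 4 of 43 other replication genes, and 6 and 3 of 21 E2F and RB genes. Genes could pass that filter, too, through the OEx mice alone. The gene called on the deposited scale was Mki67, the source of the Ki67 antigen. It was at 2.82, 2.71 and 2.22 FPKM in OEx and 0.207, 0.131 and 0.307 FPKM in Ctrl mice (log2 fold change 1.56). In the limma-voom fit, without the pseudocount of 1 FPKM and with its own scaling, the log2 fold change of Mki67 was 3.69. Of the G2 and mitosis genes that passed by FDR, Mki67, Aurkb, Bub1b and Tpx2 had Ctrl means of 0.215, 0.577, 0.900 and 0.522 FPKM. They reached the filter of 1 FPKM only through the OEx mice, whereas Ccnb2 had a Ctrl mean of 1.53 FPKM. The other 2 lists held such genes too. Rrm2b, among the 5 called, and Asf1b and Chaf1b, which passed by FDR, had Ctrl means of 0.969, 0.575 and 0.871 FPKM. Ccna2 of the E2F and RB network, which passed by FDR, had a Ctrl mean of 0.517 FPKM. The tested part of the lists was thus chosen partly by the OEx levels. Top2a, another proliferation marker, was at 2.38, 2.51 and 2.01 FPKM in OEx and 2.03, 2.22 and 1.38 FPKM in Ctrl mice, with overlap. The summed FPKM of the 24 genes was 41.4, 42.6 and 31.7 in OEx and 20.0, 22.4 and 18.4 in Ctrl mice, and OEx mouse 3 was again the lowest of its group.

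In the promoter windows, an E2F word was present for 8 of the 13 higher genes with a RefSeq window, for 0 of the 3 lower ones, for 1 of the 8 that did not pass and for 4 of the 9 under the filter. CCAAT boxes were present for 10 of the 13 higher and for all 3 lower genes. No test was made of these counts.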

How the data were processed

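Total RNA of the anterior prostate was sequenced from 6 samples, and the authors deposited 1 table of FPKM values per sample, made with HISAT2 2.0.5, featureCounts 1.5.0-p3 and StringTie 1.3.3b per the submitters' processing notes. The genome build and the strand setting are not given in the sources used here. The 40 genes and all lists were chosen with earlier results of these data known, so lists are described by counts and medians, without a list test. All 40 are named in the text, with values in every mouse for those called, for the 12 largest changes by FDR, for the most abundant gene of each role and for those opposite to their role.

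Exon lengths of the GENCODE M21 annotation (GRCm38) turned 96.9% to 97.5% of values under 1000 reads into whole reads (tolerance 0.05 reads), for 39 of the 40 genes in all mice (not Pola2). These reads gave the depth, which was 14762182 to 18650962 per mouse, and the limma-voom fits. OEx and Ctrl mice were tested with limma 3.58.1 (R 4.3.3) on log2(FPKM + 1), group as the only term and intensity trend, over rows that averaged 1 FPKM or more, two-sided, with Benjamini-Hochberg FDR over the 12833 tested rows. Nothing in the labels says more of the samples than that each is a separate library of its group, so p-values measure only the spread between these samples. Same-numbered mice deviated in opposite directions (correlations from -0.307 to -0.189), so the numbers were not taken as pairs. Plots were made with Python 3.11.15 and matplotlib 3.10.9. Fits and read recovery were tested on simulated data. Other scalings, filters, pseudocounts, models and sets of mice were run as alternatives.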

Additional observations from a re-analysis of the deposited data

How the results depend on the processing

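The count of replication genes depended on the scale more than on any single mouse. The main count was 1 called higher and 0 lower, and by FDR alone 14 higher and 5 lower. Called higher were 5 with limma-voom on recovered reads, 5 with a pseudocount of 0.1 FPKM, 11 under scaling to read totals, 16 under equal FPKM sums, 10 under equal sums without the 20 most abundant genes and 3 under equal upper quartiles. Among settings chosen after seeing the data, 10 were called with limma-voom over rows with a mean of 10 reads, 8 with a pseudocount of 0.1 FPKM and a filter of 0.1 FPKM, 3 with the exon length trend removed, 2 without the third mouse of each group and 1 with replicates 1 and 2 averaged. Over all genes these settings called 3565 of 15596, 4254 of 20134, 1532 of 12463, 1826 of 12833 and 1608 of 12833 higher, in that order. With 1 mouse left out, 1 to 3 were called higher and 0 lower (2 without Ctrl mouse 1, 3 without OEx mouse 3). Of all 12833 tested genes, 1614 to 1726 were then called higher. No setting with the fold criterion called any of these genes lower.

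By FDR alone, 26 were higher under read totals, 27 under equal sums and 23 under equal sums without the top genes, with 0 lower in each, and 0 were lower under upper quartiles. A filter of 5 FPKM left 8 of the genes and gave 3 higher and 2 lower. Lower were 2 with no filter, 1 with either limma-voom fit and 3 with the length trend removed. Averaging replicates 1 and 2 gave 7 higher and 0 lower. With 1 mouse left out, 8 to 15 were higher and 1 to 5 lower, with 9 higher without Ctrl mouse 1 and 8 without OEx mouse 1 or OEx mouse 2.

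Directions reversed mainly by scaling. Under read totals the log2 fold changes turned to 0.39 for Gins4, 0.44 for Rfc2, 0.49 for Rpa1, 0.38 for Rpa2, 0.37 for Rpa3, 0.049 for Rrm2 and 0.32 for Tyms. Under equal FPKM sums they were 0.017 for Gins2, 0.50 for Gins4, 0.55 for Rfc2, 0.60 for Rpa1, 0.48 for Rpa2, 0.48 for Rpa3, 0.13 for Rrm2 and 0.39 for Tyms. Without the top genes in the sums they were 0.27 for Gins4, 0.34 for Rfc2, 0.37 for Rpa1, 0.27 for Rpa2, 0.25 for Rpa3 and 0.25 for Tyms, and under upper quartiles 0.012 for Rfc2, 0.015 for Rpa1 and 0.035 for Tyms. These scalings raised the median of all genes from -0.08 to 0.56, 0.65, 0.45 and 0.15, and the median of the tested replication genes stayed 0.37 to 0.39 above it. With the length trend removed, Gins4 was at 0.15, Rpa3 at 0.10, Pola2 at -0.25 and Rrm1 at -0.043. With replicates averaged, Gins1 was at -0.039 and Pola2 at -0.012. With 1 mouse left out, Gins1 ran from -0.031 to 0.085, Pola2 from -0.040 to 0.093 and Rfc3 from -0.039 to 0.096. Beyond these constructions the cause was not tested.

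Of all tested genes, 1653 were called higher and 2021 lower, and the split was 3923 and 589 under read totals, 4458 and 504 under equal sums, 3477 and 717 without the top genes, 1326 lower under upper quartiles, 681 higher with a filter of 5 FPKM, 3565 higher with limma-voom over rows with 10 reads, 4254 higher with the lower pseudocount and filter, and 3941 and 4680 by FDR alone. The 3 neighbouring lists had 6 called higher and 7 lower together. Higher were 3 with the 5 FPKM filter, 16 and 43 with the limma-voom fits, 14 and 34 with the lower pseudocount without and with the lower filter, 23, 29, 16 and 10 under the 4 scalings and 25 by FDR alone. Lower were 4 with the length trend removed, 2, 1, 2 and 2 under the scalings and 12 by FDR alone.

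With the replicate number as a block, 1 replication gene was called higher, 10 were higher and 4 lower by FDR, and 1611 and 1986 of all genes were called, while same-numbered mice did not deviate together. Fen1 and Orc1, at 1 to 25 reads per mouse, are limited by depth.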
